A study of Mus musculus with 24 samples.

Results

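The RNAs described here are 6 long noncoding RNAs that are known for staying in the cell nucleus: *Malat1*, *Neat1*, *Meg3*, *Rian*, *Miat* and *Snhg11*. They were chosen by name, with earlier results of these data known. Their rows were read in both tables of raw counts, 6 of the 25793 gene rows of each table. The libraries came from cerebellum (CB) and hippocampus (HC) of 16GsoT/T and wild type (WT) mice at postnatal day 14 (P14) and P35, with 3 mice in each of 8 groups and 24 libraries in all. 16GsoT/T mice are homozygous for T(5G2;8A1)GSO, a reciprocal translocation of chromosomes 5 and 8 that breaks between *Auts2* and *Galnt17*. The study's methods state that homozygous mutants were bred from homozygous parents and that the mice were kept on a B6C3 background, and the study limited its expression work to males, whereas the labels give C57BL/6 as strain. The question put to the data was whether these RNAs differed between genotypes in any region or age. A second was how they moved beside the share of reads that fell on genes. That share depends on what the library captured and on how the reads were counted.

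Long noncoding RNAs of this kind act as RNA in the nucleus and are not translated. *Malat1* gathers in nuclear speckles, the stores of splicing factors, and *Neat1* is the scaffold on which paraspeckles form. *Meg3* and *Rian* are transcribed from the maternal chromosome of the imprinted Dlk1-Dio3 region, *Rian* hosts a row of small nucleolar RNAs (snoRNAs) in its introns, *Miat* (Gomafu) is a neuronal RNA that binds splicing factors, and *Snhg11* is a neuronal snoRNA host gene.

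In NCBIM37, the build that the submitters' processing notes name, with the GENCODE vM1 annotation, *Malat1* lies on the minus strand at chr19:5795690-5802671 and *Neat1* on the same strand at chr19:5824708-5845478, 22 kb apart. *Meg3* lies on the plus strand at chr12:110779211-110809936 and *Rian* on the same strand at chr12:110842155-110899919, 32.2 kb apart, with 13 snoRNA genes and 4 microRNA genes inside *Rian*. *Miat* is on the minus strand at chr5:112642248-112657968, on the chromosome that holds the *Auts2* breakpoint, and *Snhg11* is on the plus strand at chr2:158201374-158211881. *Malat1* and *Neat1* are annotated as single exons, and the other members as spliced genes. GENCODE vM1 calls *Snhg11* protein coding, while RefSeq lists it as a long noncoding RNA. Of genes with a row in the tables, only *Mir770* overlaps an exon of a member, *Meg3*, and it had no count in any library.

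The sequences that set these RNAs apart are shown first. *Malat1* and *Neat1* have no ordinary poly(A) tail at their mature long ends, which are held by a triple helix of stretches rich in T (U in the RNA) and a stretch rich in A, and this bears on a library made by capture of poly(A). Each is given 5′ to 3′ on the gene's own strand from NCBIM37, at chr19:5795982-5796081 for *Malat1* and chr19:5824708-5824807 for *Neat1*, with the A-rich stretch (at least 5 A followed by GCAAAA) and the T-rich stretches (at least 3 T, then C or GC, then at least 3 T) in capitals.
Malat1: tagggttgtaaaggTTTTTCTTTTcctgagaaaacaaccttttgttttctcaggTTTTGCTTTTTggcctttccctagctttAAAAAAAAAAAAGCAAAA
Neat1: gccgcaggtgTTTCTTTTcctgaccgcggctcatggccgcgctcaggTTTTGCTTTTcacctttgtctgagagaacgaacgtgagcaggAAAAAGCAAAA
The A-rich stretch occurred once in each gene, and 0.0672% of 581419 windows of 100 bases on chr19 held it on either strand. In *Neat1* it was the annotated end, while the *Malat1* annotation ran on for another 292 bases.

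*Miat* is known for copies of TACTAAC, the branch point consensus of yeast introns, through which it binds the splicing factor SF1. Its annotated transcript held 6 copies on its own strand, *Neat1* held 1 and the other members held 0. The 200 bases with the most copies, at chr5:112646339-112646538 on the minus strand in NCBIM37, are printed with the 3 copies in capitals.
Miat: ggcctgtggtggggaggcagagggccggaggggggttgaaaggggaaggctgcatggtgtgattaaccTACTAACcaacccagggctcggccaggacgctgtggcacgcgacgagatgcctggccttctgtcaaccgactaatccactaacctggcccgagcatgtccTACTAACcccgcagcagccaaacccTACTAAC
Of 738556 windows of 200 bases on chr5, 1.37% held at least 1 copy on either strand and 0.00135% held at least 3.

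RefSeq (GRCm38.p6) gave 6 promoters for 5 of the members of 300 bases around the start, most of them upstream. *Snhg11*, *Miat*, *Malat1* and *Rian* had 1 each and *Meg3* had 2. They were searched on both strands for the GC box (GGGCGG), the CCAAT box (its 5 letters), the TATA box (TATAAA), the cAMP response element (TGACGTCA) and the E-box (CACGTG). The first *Meg3* promoter, chr12:109540746-109541045, is shown because it alone among the 6 held the CCAAT box, the TATA box and the cAMP response element, all in capitals, with copies of the TATA box on both strands overlapping.
Meg3: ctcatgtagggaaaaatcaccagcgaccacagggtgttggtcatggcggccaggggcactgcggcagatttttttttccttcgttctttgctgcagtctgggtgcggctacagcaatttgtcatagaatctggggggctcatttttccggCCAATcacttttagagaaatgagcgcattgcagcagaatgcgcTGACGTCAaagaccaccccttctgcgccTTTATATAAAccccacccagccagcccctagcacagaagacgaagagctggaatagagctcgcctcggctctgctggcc
Of 32851 promoters in the table, 37.4% held the CCAAT box, 13.6% the TATA box and 1.79% the cAMP response element. The GC box was found in the *Miat* promoter alone among the 6 and in 35.7% of all, and the E-box in none of the 6 and in 7.15% of all, so no motif was shared by the members.

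Reads on genes ranged from 2563968 to 13245150 per library outside P14 CB and from 22893603 to 40564789 in P14 CB. The share of all reads that fell on genes was 39.3% to 42.4% in 15 libraries, 37.6% to 37.7% in the WT P35 CB libraries and 64.8% to 68.1% in P14 CB. A list of RNAs without a poly(A) tail held snoRNAs, other small RNAs and the ribosomal RNA row *Rn18s*. Its sum took 0.399% to 2.36% of reads on genes in P14 CB, 0.0553% to 0.190% in P14 HC, 0.0590% to 0.106% in P35 CB and 0.0414% to 0.685% in P35 HC. By the lane codes in the labels, no lane held libraries of more than 1 age or region, so region and age cannot be told apart from the lane. Within P14 HC, WT and 16GsoT/T were on different lanes, while both genotypes of P35 CB shared a lane. *Gabra6* of granule cells, *Pcp2* of Purkinje cells and *Neurod6* of HC neurons followed the labelled regions in all groups. *Galnt17* (listed as *Wbscr17*), beside the breakpoint, did not overlap between genotypes in P14 CB, with 18.2 to 22.1 CPM (read counts scaled to library size) in 16GsoT/T and 39.8 to 43.2 in WT, and it was lower in 16GsoT/T without overlap in the other 3 comparisons as well.

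The members were not all abundant, as shown by RPKM, which is CPM per kilobase of exon. Group means of *Malat1* lay between 23.8 and 524 RPKM, of *Meg3* between 27.7 and 154, of *Snhg11* between 26.8 and 145 and of *Rian* between 33.4 and 90.2. *Miat* lay between 0.896 and 75.6 RPKM, and *Neat1* between 0.676 and 3.47 over an annotated length of 20771 bases, so these RNAs were of low level in some or all groups. The annotation used for counting is not given, so the part of *Neat1* that was counted is unknown. Its short and long transcripts cannot be told apart. If only a part was counted, the RPKM of *Neat1* given here is too low. The counts come from whole tissue, so the place of the RNA in the cell was not measured. In such bulk tissue, fewer cells of a type and less RNA per cell cannot be told apart.

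**Figure D1:**
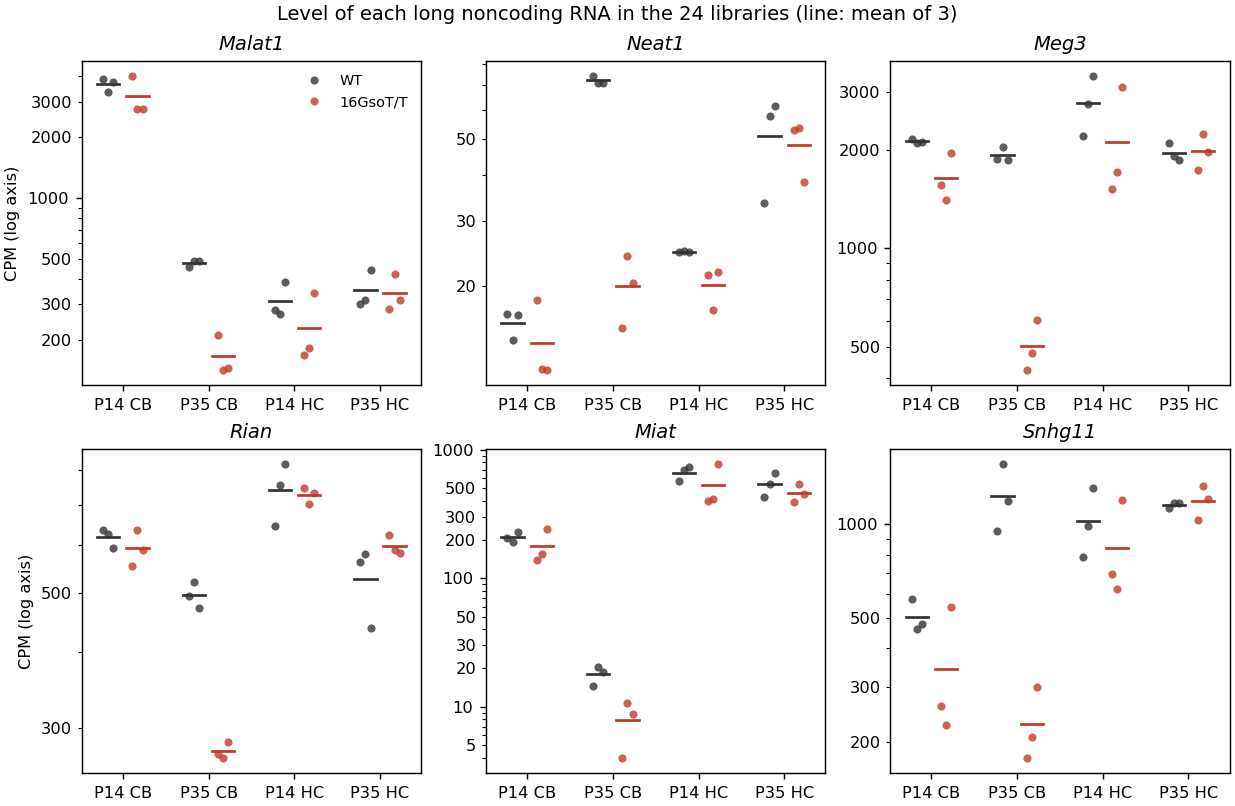
Level of each RNA in CPM, on log axes, in WT (grey) and 16GsoT/T (red) libraries of each age and region, with a line at the mean of 3 libraries. In P35 CB the red points lie below the grey points for every RNA, and in the other sets most overlap.

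All 6 RNAs were lower in P35 CB of 16GsoT/T mice, by 1.83-fold for *Rian* to 5.45-fold for *Snhg11*, and for each of them the 3 libraries of one genotype lay apart from the 3 of the other. In that comparison 18% of the 14004 genes tested were called lower and 17.4% higher at an adjusted p of at most 0.05, and 22.8% were lower without overlap between the groups. The median log2 fold change of the 6, a set chosen with earlier results of these data known, was -1.70, against -0.004 over all genes tested. The test was the quasi-likelihood test of edgeR with Benjamini-Hochberg adjustment over all genes tested, as for every adjusted p that follows.

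*Malat1*, the speckle RNA, had 1217, 1000 and 980 counts in the 16GsoT/T P35 CB libraries C19, C20 and C21, and 2878, 3973 and 2609 in the WT libraries M27, M28 and M29. Scaled to library size these were 210, 142 and 146 CPM in 16GsoT/T and 456, 489 and 489 CPM in WT. The highest 16GsoT/T library was thus below the lowest WT library, with a log2 fold change of -1.54 ± 0.12 (SE, n = 3 per group, edgeR adjusted p = 1.8e-06). *Neat1*, the paraspeckle scaffold, had 89, 170 and 137 counts in 16GsoT/T and 468, 578 and 379 in WT, or 15.4, 24.1 and 20.4 CPM against 74.2, 71.1 and 71.0 CPM. The WT libraries were close to each other and the 16GsoT/T libraries spread more, and the log2 fold change was -1.85 ± 0.12 (SE, edgeR adjusted p = 5.02e-07).

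*Meg3*, the maternally expressed RNA at the head of the Dlk1-Dio3 transcripts, had 2449, 3361 and 4037 counts in 16GsoT/T and 11805, 16625 and 9951 in WT. In CPM the 16GsoT/T libraries stood at 424, 477 and 601 and the WT libraries at 1872, 2045 and 1863. It was 3.88-fold lower, with a log2 fold change of -1.96 ± 0.11 (SE, edgeR adjusted p = 1.25e-07). *Rian*, downstream on the same strand, had 1568, 1882 and 1908 counts in 16GsoT/T and 3123, 4248 and 2524 in WT, or 271, 267 and 284 CPM against 495, 523 and 473 CPM. Its decrease was the smallest of the 6, with a log2 fold change of -0.87 ± 0.061 (SE, edgeR adjusted p = 9.51e-07), and both groups were tight.

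*Miat*, the RNA with the TACTAAC copies, was near the floor in P35 CB, with 23, 76 and 59 counts in 16GsoT/T and 92, 167 and 100 in WT. These were 3.98, 10.8 and 8.79 CPM in 16GsoT/T and 14.6, 20.5 and 18.7 CPM in WT. The groups did not overlap, but with few reads the log2 fold change of -1.18 ± 0.25 (SE, edgeR adjusted p = 0.00341) was the least precise of the 6. *Snhg11*, the snoRNA host, had 1027, 1459 and 2020 counts in 16GsoT/T and 5988, 12720 and 6342 in WT, or 178, 207 and 301 CPM against 950, 1565 and 1188 CPM. It had the largest change of the 6, with a log2 fold change of -2.45 ± 0.19 (SE, edgeR adjusted p = 2.33e-06), although its WT libraries spread widely.

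**Figure D2:**
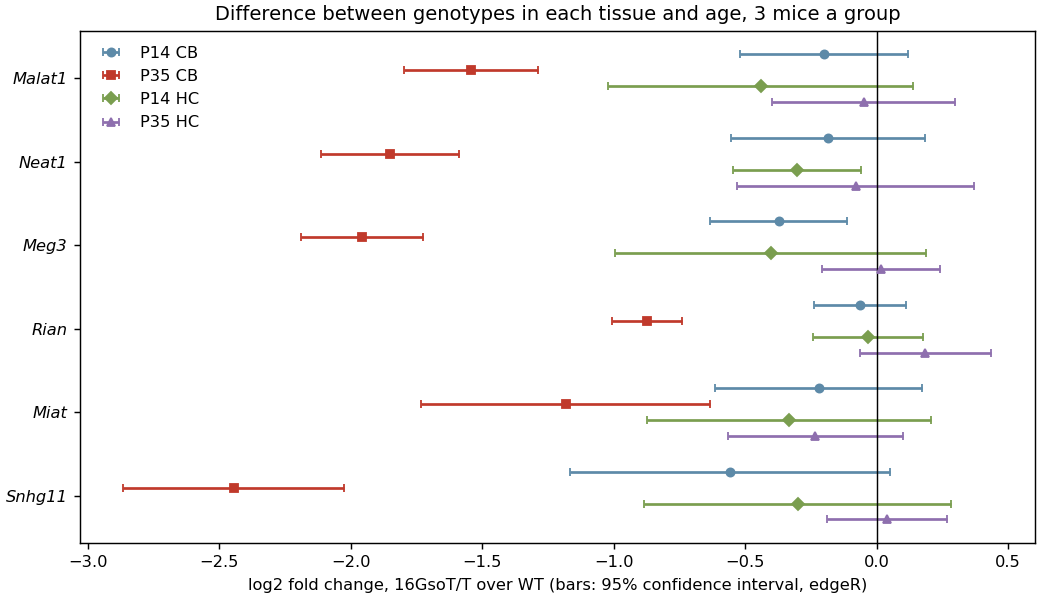
Log2 fold change of 16GsoT/T over WT for each RNA in the 4 comparisons, with 95% confidence intervals from edgeR. The P35 CB values lie between -2.45 and -0.87 with intervals below 0, and the values of the other comparisons lie between -0.56 and 0.19.

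The share of reads on genes moved in the same set of libraries. It was 42.3%, 42.3% and 42.4% in the 16GsoT/T P35 CB libraries and 37.7%, 37.7% and 37.6% in WT, which is 4.64 percentage points higher in 16GsoT/T (two-sided exact permutation test, p = 0.1, the smallest that 3 against 3 allows). Reads on no annotated feature made up 48.9% to 49.6% in 16GsoT/T and 51.1% to 51.6% in WT. The summary line for alignments that were not unique made up 7.90% to 8.64% and 10.6% to 11.2%. In the other comparisons the share on genes differed by 1.09 points (P14 CB, exact permutation p = 0.4), 0.39 points (P14 HC, p = 0.5) and 0.64 points (P35 HC, p = 0.3). With reads on genes and on no feature as the base, the P35 CB libraries stood at 46.2% in 16GsoT/T and 42.3% in WT (exact permutation p = 0.1). On that base the P14 CB libraries lay apart as well, at 76.1% in 16GsoT/T and 74.7% in WT (exact permutation p = 0.1). The 6 RNAs together took 0.107% to 0.133% of the reads on genes in 16GsoT/T P35 CB and 0.394% to 0.480% in WT.

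Scaling by all reads in place of reads on genes, which lets that share enter the fold change, left all 6 lower. The values ran from -2.33 for *Snhg11* to -0.76 for *Rian*, the largest edgeR adjusted p was 0.00485 (*Miat*), and the median of all genes moved to 0.11. That shift is small beside the changes of the 6, so this scaling could not have turned their sign. Set against the reads on no feature, *Malat1* stood at 120 to 177 counts relative to such reads, scaled as CPM, in 16GsoT/T and 342 to 374 in WT. *Meg3* stood at 356 to 502 and 1402 to 1526, so the groups lay apart on that scale too. The shares of such reads were close between genotypes, so that scale could not have brought the groups together either. Whether the share on genes or library preparation had a part in the lower counts was not tested. The study's methods name capture of mRNA with a KAPA kit and the labels name a TruSeq Stranded mRNA kit, and nuclear RNA was not analysed here apart from the whole.

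**Figure D3:**
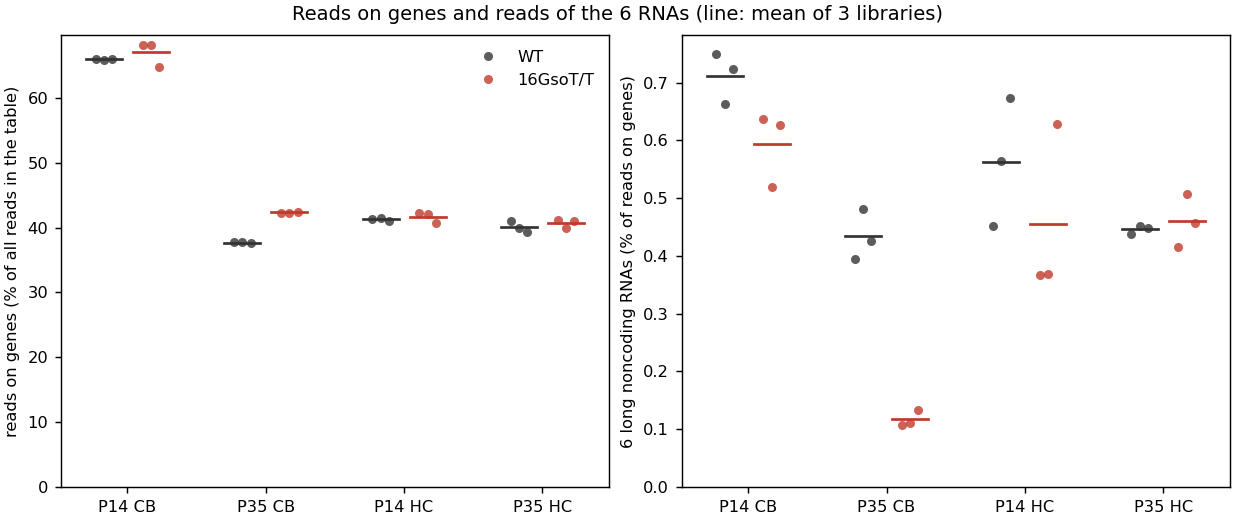
Left, reads on genes as a percentage of all reads in the table, and right, reads of the 6 RNAs as a percentage of reads on genes, by library, with a line at the mean of 3. In P35 CB the 16GsoT/T libraries are higher on the left (42.3% to 42.4% against 37.6% to 37.7%) and lower on the right (0.107% to 0.133% against 0.394% to 0.480%).

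Other genes of the same nuclear bodies were read from lists. Of 23 tested genes for nuclear speckle and SR proteins, which bind and splice pre-mRNA and share the speckle with *Malat1*, 16 were called lower, 4 were called higher and 3 did not pass in P35 CB, with a median log2 fold change of -0.61. Among them were the kinases *Clk1* (-1.66 ± 0.064) and *Clk4* (-1.28 ± 0.11), which phosphorylate SR proteins, and the SR proteins *Sfrs1* (-1.14 ± 0.059) and *Sfrs5* (-1.08 ± 0.094), each with SE. *Prpf6* (0.48 ± 0.071) and *U2af2* (0.38 ± 0.068) rose. Of 19 genes for paraspeckle proteins, which assemble on *Neat1*, 4 were called higher and 4 lower with a median of 0.05, among them *Cpsf6* (-1.01 ± 0.070) and *Tardbp* (-0.60 ± 0.085), which were lower, and *Rbm14* (0.62 ± 0.14) and *Smarca4* (0.58 ± 0.060), which were higher. Of the splicing factors reported to bind *Miat*, *Sf1* rose (0.41 ± 0.072, edgeR adjusted p = 0.001) and *Tnrc4* (*Celf3*) fell (-0.43 ± 0.11, edgeR adjusted p = 0.00698).

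Among 23 other tested long noncoding RNAs of a list, 12 were called lower and 1 higher in P35 CB, with a median of -0.37. The imprinted antisense RNA *Kcnq1ot1* had the largest decrease (-2.49 ± 0.20), followed by *B230206F22Rik* (*Ftx*, a neighbour of *Xist*, -1.86 ± 0.13), and *Peg13* was higher (0.58 ± 0.059). Of all 365 tested rows that RefSeq calls long noncoding RNA, members left out, 24.9% were called lower and 3.29% higher with a median of -0.23, a list drawn up after the values were seen. Of 12804 protein coding genes 17.4% were called lower and 18.1% higher, with a median of 0.006. Of 73 cytosolic ribosomal protein genes, whose mRNAs are short and mostly cytoplasmic, 52 were called higher and 0 lower, with a median of 0.29. The 5 tested RNAs without a poly(A) tail gave no call by edgeR in P35 CB.

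**Figure D4:**
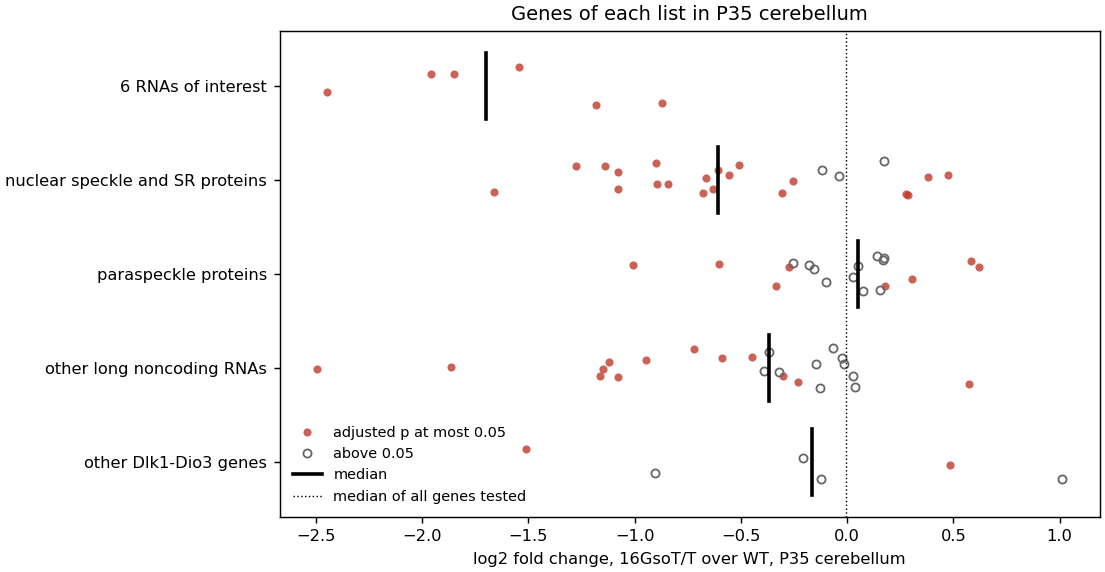
Log2 fold change of 16GsoT/T over WT in P35 CB for the genes of each list, filled red where the edgeR adjusted p was at most 0.05, with a bar at the median and a dotted line at the median of all genes. The medians are -1.70 for the 6 RNAs, -0.61 for nuclear speckle and SR proteins, 0.05 for paraspeckle proteins, -0.37 for other long noncoding RNAs and -0.16 for other Dlk1-Dio3 genes.

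The genes around the members were read in P35 CB as well. Among the nearest flanking genes on either side, 11 were tested, of which 2 were called lower and 0 higher, where 18% and 17.4% of all genes were, so the share called lower was that of all genes. *Frmd8*, 4.2 kb from *Neat1*, had a log2 fold change of 0.12 ± 0.10, which did not pass. *Ltbp3*, 37.2 kb from *Malat1*, was lower (-0.54 ± 0.067, edgeR adjusted p = 8.49e-05), as was the long noncoding RNA *9430008C03Rik* 14.1 kb from *Snhg11* (-0.68 ± 0.22, edgeR adjusted p = 0.029). Of 6 other tested genes in or beside the Dlk1-Dio3 region, 1 was lower and 1 higher. *Mirg*, a further maternally expressed noncoding RNA, was lower (-1.51 ± 0.19, edgeR adjusted p = 0.000101), and *Wars*, a tRNA synthetase gene, was higher (0.48 ± 0.085, edgeR adjusted p = 0.001). The paternally expressed *Dlk1* (1.01 ± 0.55) and *Rtl1* (-0.90 ± 0.39) did not pass.

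Marker genes of cell types differed between the genotypes in P35 CB as well. Of 5 neuronal markers 4 were higher, and their summed level was 5659 to 5781 CPM in 16GsoT/T against 3636 to 4011 in WT. A single abundant gene can carry such a sum, and *Snap25* alone stood at 3014 to 3081 CPM against 1647 to 1935. *Gabra6* of granule cells went the other way, at 710 to 722 CPM in 16GsoT/T and 838 to 882 in WT. All 3 endothelial markers were lower, with summed levels of 43.7 to 50.6 CPM against 74.7 to 76.4. Of 4 choroid plexus markers 1 was lower, with sums of 122 to 356 CPM against 13.6 to 2057, and of 2 blood markers 1 was higher. None of the oligodendrocyte, precursor or microglial markers passed. Of 7 markers of cerebellar cells 1 was higher and 1 lower, with overlapping sums of 5024 to 5645 CPM in 16GsoT/T and 4882 to 5348 in WT, and of 5 astrocyte markers 1 was higher and 1 lower. The part of these markers in the lower counts of the 6 RNAs was not tested.

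In P14 CB none of the 6 passed in edgeR, against 0.413% of genes called lower and 0.0938% called higher. DESeq2 called 1 (*Meg3*), among the 236 genes it called of 20889. At an unadjusted p under 0.05 edgeR had 1 as well, and it had 1421 of the 15993 genes tested. All 6 log2 fold changes were negative, from -0.56 (*Snhg11*) to -0.06 (*Rian*). *Meg3* alone did not overlap, at 1566, 1399 and 1960 CPM in the 16GsoT/T libraries 4, 5 and 6 and 2159, 2104 and 2107 CPM in the WT libraries 1, 2 and 3 (-0.37 ± 0.12 SE, edgeR adjusted p = 0.321), where 7.05% of genes were lower without overlap. *Snhg11* stood at 260, 228 and 543 CPM in 16GsoT/T and 575, 463 and 479 CPM in WT. Library 6 was the highest 16GsoT/T library for *Snhg11*, *Meg3* and *Miat*, and library 4 for *Malat1* and *Neat1*. Without library 6 *Meg3* (-0.52, edgeR adjusted p = 0.031) and *Snhg11* (-1.05, edgeR adjusted p = 0.00367) passed.

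In P14 HC none passed by either tool, against 0.453% of genes called lower and 0.361% higher in edgeR. At an unadjusted p under 0.05 edgeR had 1 of the 6, and it had 2669 of the 15227 genes tested. The log2 fold changes ran from -0.44 (*Malat1*) to -0.03 (*Rian*). *Neat1* alone did not overlap, with 17.2 to 21.9 CPM in 16GsoT/T and 24.7 to 24.8 CPM in WT (-0.30 ± 0.11 SE, edgeR adjusted p = 0.197), as 10.8% of genes did in that direction. Library A18 of 16GsoT/T stood apart from A13 and A14 for several members. *Malat1* was at 339 CPM in A18 and at 168 and 183 CPM in the others, *Meg3* at 3114 against 1514 and 1714 CPM, and *Miat* at 776 against 399 and 411 CPM. Without A18, *Miat* passed (-0.72, edgeR adjusted p = 0.0405).

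In P35 HC none passed by either tool, and edgeR called 0.0225% of genes lower and 0.112% higher. None had an unadjusted p under 0.05 in edgeR, where 1179 of the 13343 genes tested did. The values lay between -0.23 (*Miat*) and 0.19 (*Rian*), 3 above 0 and 3 below. The interval of *Meg3* ran from -0.21 to 0.24. *Rian* was higher in 16GsoT/T without overlap, at 625, 589 and 583 CPM in B10, B11 and B12 and 563, 580 and 438 CPM in the WT libraries N10, W481 and W483, as were 5.81% of genes. No member was lower without overlap, where 6.93% of genes were. The 16GsoT/T libraries and N10 had a single index, and W481 and W483 a dual index. With the kind of index in the fit, *Malat1* (0.20), *Neat1* (0.54), *Miat* (0.14) and *Meg3* (-0.06) changed sign. The WT level in that fit rests on N10 alone, so it cannot separate genotype from that library.

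The difference between genotypes was then compared between ages and between regions. In CB it was more negative at P35 than at P14 for *Snhg11* (-1.89 ± 0.38), *Neat1* (-1.67 ± 0.23), *Meg3* (-1.59 ± 0.17), *Malat1* (-1.35 ± 0.21) and *Rian* (-0.81 ± 0.10), with edgeR adjusted p between 2.24e-05 and 0.00326 for the interaction of genotype and age. *Miat* did not pass (-0.97 ± 0.37, edgeR adjusted p = 0.0797). Of all genes tested 18.6% passed. At P35 the difference in HC exceeded that in CB for the same 5, from 1.06 ± 0.14 for *Rian* to 2.49 ± 0.25 for *Snhg11*, with edgeR adjusted p between 1.88e-06 and 0.000702 and 9.61% of genes passing. *Miat* again did not pass (0.95 ± 0.32, edgeR adjusted p = 0.0694). The interaction of genotype with age in HC and with region at P14 gave 0 members, with 0.00666% and 0% of genes passing in edgeR. No member had a call by DESeq2 or an unadjusted p under 0.05 in edgeR. Of all genes, 1708 of 15010 and 1509 of 16398 had such an unadjusted p. These comparisons share libraries with those above.

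Over the 8 groups the order of levels differed between members. *Malat1* was highest in P14 CB, at 3661 ± 273 CPM in WT and 3189 ± 725 in 16GsoT/T (mean ± SD, n = 3), which overlapped. WT P35 CB followed at 478 ± 18.6 CPM, the HC groups lay between 230 ± 94.8 and 352 ± 77.6 CPM and overlapped their neighbours, and 16GsoT/T P35 CB came last at 166 ± 38.5 CPM. *Neat1* was highest in WT P35 CB (72.1 ± 1.83 CPM), followed by P35 HC (51.0 ± 15.1 in WT and 48.3 ± 8.75 in 16GsoT/T), P14 HC (24.8 ± 0.072 and 20.2 ± 2.61), 16GsoT/T P35 CB (19.97 ± 4.38) and P14 CB (15.9 ± 1.39 in WT and 14.0 ± 3.71 in 16GsoT/T), of which the last 4 groups overlapped in turn.

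*Meg3* lay between 1642 ± 288 and 2780 ± 580 CPM in 7 groups, most of which overlapped the next in order, and at 501 ± 91.1 CPM in 16GsoT/T P35 CB. *Rian* had the same shape, with 497 ± 25.0 to 739 ± 86.8 CPM in 7 groups and 274 ± 8.90 CPM in 16GsoT/T P35 CB. *Miat* was the RNA of HC, with 464 ± 76.4 to 662 ± 85.6 CPM in the 4 HC groups, each overlapping its neighbour. P14 CB had 208 ± 19.4 CPM in WT and 179 ± 55.0 in 16GsoT/T, and P35 CB had 17.95 ± 3.05 and 7.85 ± 3.50. *Snhg11* lay between 839 ± 315 and 1234 ± 310 CPM in the HC groups and WT P35 CB, all overlapping the next. It was lower in P14 CB (506 ± 61.0 in WT and 344 ± 174 in 16GsoT/T) and in 16GsoT/T P35 CB (228 ± 64.3), which overlapped in turn.

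Between WT regions at P14 all 6 passed, in a comparison where 77.2% of genes did. *Malat1* was 11.6-fold higher in CB (log2 fold change 3.54 ± 0.14) and *Miat* 3.22-fold lower (-1.69 ± 0.11). *Snhg11* (-1.04 ± 0.16) was also lower in CB, as were *Neat1* (-0.66 ± 0.092), *Meg3* (-0.41 ± 0.13) and *Rian* (-0.27 ± 0.091), but these 4 calls depended on the scaling. With all reads as library size, which moved the median of all genes to 0.69, *Snhg11* no longer passed (-0.37, edgeR adjusted p = 0.0545), *Neat1* (0.015) and *Meg3* (0.26) turned sign without passing, and *Rian* passed as higher in CB (0.40, edgeR adjusted p = 0.00225). *Malat1* was then at 4.21 and *Miat* at -1.02. *Meg3* and *Rian* did not pass without HC library N6 (-0.24 and -0.19) or CB library 3 (-0.39 and -0.24). At P35, 56.0% of genes passed. *Miat* was 31.3-fold lower in CB (-4.97 ± 0.18), while *Malat1* (0.38 ± 0.13) and *Neat1* (0.44 ± 0.16) were slightly higher. Both lost their call without single libraries, *Malat1* without W481 (0.31), M28 (0.37) or M29 (0.37) and *Neat1* without N10 (0.22), M27 (0.43), M28 (0.46) or M29 (0.45), while *Rian* gained one without W483 (-0.25).

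Between WT ages in CB, 63.0% of genes passed and so did 5 of the 6. From P14 to P35 *Malat1* was 7.58-fold lower (-2.92 ± 0.071) and *Miat* 11.4-fold lower (-3.51 ± 0.11). *Neat1* was 4.58-fold higher (2.20 ± 0.084), *Snhg11* 2.47-fold higher (1.30 ± 0.14) and *Rian* a little lower (-0.30 ± 0.064). *Meg3* did not pass (-0.12 ± 0.059, edgeR adjusted p = 0.0794), but did without M28 (-0.17), by DESeq2 (-0.14, adjusted p = 0.0251), without the filter on low counts (-0.16, edgeR adjusted p = 0.0341) and with all reads as library size. That scaling moved the median of all genes to -0.78, and under it all 6 passed with the same signs, at -3.71 for *Malat1*, -4.29 for *Miat*, 1.41 for *Neat1*, 0.52 for *Snhg11*, -1.08 for *Rian* and -0.91 for *Meg3*. The neighbours *Malat1* and *Neat1* thus went opposite ways in CB, between libraries of different lanes, so age cannot be told apart from lane. The share of reads on genes was 65.8% to 66.0% in WT P14 CB and 37.6% to 37.7% in WT P35 CB. RNAs without a poly(A) tail took 0.399% to 0.764% and 0.0648% to 0.106% of reads on genes. In HC, 24.8% of genes passed, and *Neat1* was 2.03-fold higher at P35 (1.02 ± 0.19, edgeR adjusted p = 0.00456). *Malat1* did not pass in HC (0.16 ± 0.17, edgeR adjusted p = 0.533). *Meg3* (-0.53 ± 0.14) and *Rian* (-0.51 ± 0.13) were lower there. *Meg3* lost its call without N6 (-0.37), W481 (-0.51) or W483 (-0.49), and *Rian* without N6 (-0.43) or W483 (-0.39).

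Across the 24 libraries, Pearson's r of log2 CPM between members was highest for *Rian* and *Meg3* (0.885) and for *Rian* and *Miat* (0.819), and lowest for *Malat1* and *Neat1* (-0.398). The libraries share region, age, lane and depth, so these values describe the pattern over groups only. Of 12327 genes, those most like *Malat1* were *Slc25a36* (0.973), *Kcnq1ot1* (0.969) and *Ccdc88a* (0.965), and those most like *Miat* were *Slc44a5* (0.972), *Ccnd2* (0.969) and *Dcc* (0.968). For *Neat1* they were *LOC100503476* (0.932), *Gm4759* (0.918) and *LOC100504665* (0.908), and for *Meg3* they were *Znf512b* (0.895), *Akap8l* (0.891) and *Hdac7* (0.887). *Snhg11* was most like *Chrd* (0.929), *Snx32* (0.924) and *Fam193b* (0.913). *Rian* was most like *AF357359* (0.916), *Ctsh* (0.907) and *A130022J15Rik* (0.907).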

How the data were processed

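RNA-seq covered both brain regions, both genotypes and both ages, with 3 mice per group. The authors deposited raw counts of reads per gene, whole numbers without normalization, in one table per age. The submitters' processing notes name CASAVA 1.8.2, TopHat2 2.0.8, HTSeq 0.6.1, R 3.0.0, edgeR 3.2.4 and NCBIM37. Which annotation and which strand setting HTSeq used is not given in the sources used here, so overlapping or antisense reads cannot be told apart. Summary lines of the counter were used for the share of reads on genes and kept out of library sizes. All reads means the gene rows plus the lines for no feature, ambiguous reads and alignments that were not unique. Whether the last line counted each read once is not known. Groups came from the labels, and p-values set a difference between groups against the spread between mice within groups. They cannot separate genotype from lane in P14 HC, or region and age from lane. Nor can they separate genotype from the breeding of the mutants by homozygous parents.

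Counts were fitted in R 4.3.3 with the quasi-likelihood test of edgeR 4.0.16 (TMM, filterByExpr with a minimum count of 10 and total of 15, Benjamini-Hochberg adjustment over all genes tested, threshold 0.05), using the libraries of the groups compared. CPM came from one TMM scaling of all 24 libraries and RPKM from merged exon lengths of GENCODE vM1. The log2 CPM for likeness used a prior count of 2, and the 3 genes with the highest r are named for each member. From each list at most 4 called genes with the largest changes are named. The nearest 2 genes with a row on either side of each member were also read. *Peg13*, *Prpf6* and *U2af2* lay outside these rules and were named after their values were seen. Alternatives were DESeq2 1.42.0, its size factors, all reads as library size, no filter, all 12 libraries of an age, index kind in P35 HC and each library left out. The test was tried on simulated data first. The members, lists and tests were chosen with earlier results of these data known.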

Additional observations from a re-analysis of the deposited data

Results flagged for a closer look

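The genotype difference of 5 members differed between ages in CB and between regions at P35, each by an edgeR interaction test over 12 libraries. On the log2 scale, the P35 CB difference minus the P14 CB difference was -1.35 for *Malat1*, -1.67 for *Neat1*, -1.59 for *Meg3*, -1.89 for *Snhg11* and -0.81 for *Rian*. The P35 HC difference minus the P35 CB difference was 1.496 for *Malat1*, 1.78 for *Neat1*, 1.98 for *Meg3*, 2.49 for *Snhg11* and 1.06 for *Rian*. Both sets rest on the same 6 P35 CB libraries, in which the share of reads on genes was also 4.64 points higher in 16GsoT/T, and the part of that share was not tested. Groups held 3 libraries each, so single libraries were not tested for standing apart.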

How the results depend on the processing

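The 6 calls in P35 CB held under all 11 alternatives, with values of -1.74 to -1.43 for *Malat1*, -2.01 to -1.70 for *Neat1*, -2.11 to -1.84 for *Meg3*, -1.48 to -0.89 for *Miat*, -2.70 to -2.23 for *Snhg11* and -0.90 to -0.76 for *Rian*, and their largest adjusted p was 0.0257 (edgeR or DESeq2, *Miat*). The share of genes called that were lower in that comparison was 50.8%, and 30.8% with all reads as library size. No paired analysis was possible because the groups compared share no replicate numbers. Where a setting changed a value, the cause was not tested. DESeq2 called 1 member in P14 CB, and 236 (P14 CB), 400 (P14 HC), 47 (P35 HC), 116 (genotype by age, HC) and 85 (genotype by region, P14) genes, against 81, 124, 18, 1 and 0 by edgeR. Without the filter there were 134 genes in P35 HC and 27 for genotype by age in HC, and with all 12 libraries of the age 326 (P14 HC) and 37 (P35 HC). With all reads as library size 3 members were called between WT regions at P14, and *Neat1* (0.015), *Meg3* (0.26) and *Rian* (0.40, a call) turned there, as did *Malat1* in P35 HC (0.011). With index kind in the fit, where the WT level rests on N10 alone, P35 HC gave 0.20 for *Malat1*, 0.54 for *Neat1*, -0.059 for *Meg3* and 0.14 for *Miat*. *Miat* passed both interactions without the filter (-0.94 for genotype by age in CB, 0.94 for genotype by region at P35), the first also without P14 CB library 4 (-1.10) and the second without W483 (1.11) or C20 (1.25).

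With each library left out, members called ranged from 0 to 2 in P14 CB, 0 to 1 in P14 HC, 1 to 4 between WT regions at P35 and 1 to 3 between WT ages in HC. Genes called ranged from 33 to 181 in P14 CB, 13 to 114 in P14 HC, 6 to 139 in P35 HC, 2009 to 4091 between WT ages in HC, 1 to 67 for genotype by age in HC, 0 to 22 for genotype by region at P14 and 868 to 1427 at P35. Single values whose sign turned, none of them a call, ranged as follows. In P35 HC they were -0.22 to 0.16 for *Malat1*, -0.32 to 0.094 for *Neat1*, -0.069 to 0.11 for *Meg3* and -0.042 to 0.13 for *Snhg11*, and in P14 HC -0.12 to 0.046 for *Rian*. Between WT regions at P35 *Snhg11* ran from -0.17 to 0.20, and between WT ages in HC *Malat1* from -0.035 to 0.34 and *Snhg11* from -0.014 to 0.36. For genotype by age in HC the ranges were -0.0026 to 0.39 for *Neat1* and -0.059 to 0.49 for *Miat*. For genotype by region at P14 they were -0.22 to 0.10 for *Neat1*, -0.43 to 0.14 for *Meg3*, -0.51 to 0.17 for *Miat*, -0.11 to 0.76 for *Snhg11* and -0.077 to 0.094 for *Rian*. Low counts limit *Miat* in P35 CB, with 23 to 167 per library. *Neat1* had 89 to 641 counts per library.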
